A study of Bos taurus with 14 samples.

Results

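The results below describe the abundant bovine miRNAs of blood plasma and how their levels compared between a forage diet and a high-grain diet. A member was any bovine miRNA name (prefix bta-, left out hereafter) with at least 100 reads in every one of the 8 plasma libraries, and of the 463 bovine names with plasma reads all but 338 qualified. The members were thus chosen by their read numbers, so their abundance is a description and not a finding. Because a name had to reach 100 reads on both diets, names that were scarce on one diet are left out by construction. Plasma came from 4 non-lactating Holstein cows with a rumen cannula. Jugular blood was drawn into EDTA tubes while a cow ate only forage (FD, 0% concentrate) and once more in week 1 of a ration with 65% concentrate (high grain, HG), a feeding model of subacute ruminal acidosis, and the plasma was spun again to clear it of cells. FD always came first, so diet and time cannot be told apart. Leucocytes of 3 of the same cows gave 6 further libraries, used here only for comparison.

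miRNAs are short RNAs that guide Argonaute proteins to messenger RNAs through a seed near their 5′ end, and members of a family share that seed. In plasma they circulate inside vesicles and bound to proteins, and they enter from blood cells, vessel walls and organs. Some are made mostly by one tissue, such as miR-122 by liver and miR-451 by red blood cells, so their plasma level is often read as a sign of release from that tissue. Fewer cells of a type, less miRNA per cell and less release cannot be told apart in such samples.

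The members held 70.8% to 74.0% of the estimated counts of each plasma library, and 97.1% to 98.6% of those given to bovine names. In an estimated count, a read that matches several names is divided among them. The library totals differed widely. On FD they were 292241, 1119759, 1308154 and 2280797 estimated counts in cows 1 to 4, and on HG they were 3178990, 762918, 836370 and 2580591. The HG library was therefore 10.9-fold deeper than the FD library in cow 1, 0.681-fold as deep in cow 2, 0.639-fold in cow 3 and 1.13-fold in cow 4. The shallow FD library of cow 1 was the lowest library for 111 of the members. The members nearest the limit were miR-197, miR-182 and miR-202 with 104, 105 and 106 reads there. Just outside were miR-18a, miR-146b and miR-204 with 98, 91 and 84 reads, also in that library. Of the 338 bovine names outside, 40 reached 100 reads in every HG library and 0 in every FD library. Among the 40, 15 fell below 100 reads only in the shallow FD library of cow 1. Depth and diet therefore cannot be told apart in this count.

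Levels are given as counts per 1000000 (CPM) of the members' own counts, after TMM scaling across the members. No member differed between the diets at an adjusted p under 0.05 (0 called), and none of the 536 names tested did either, a background of 0% (edgeR quasi-likelihood test with cow as a block, smallest Benjamini-Hochberg adjusted p = 0.451). At an unadjusted p under 0.05 in edgeR, 2 members (1.6%) were called, both lower on HG, against 10.6% of all names tested (57 of 536, of which 49 were higher and 8 lower). Within cows, 3 members (2.4%) were higher on HG in 4 of 4 cows, against a background of 10.8%. In the other direction, 6 members (4.8%) were lower in 4 of 4 cows, against 1.87% of all names. The FD and HG levels of 0 members failed to overlap, where 4.85% of all names tested were apart. DESeq2's Wald test, fitted to these names, called 4 members at an unadjusted p under 0.05, against 8.21% of all names (44 of 536). It called 1 member, miR-1306, at an adjusted p under 0.05 (DESeq2 adjusted p = 0.0136), against 2.02% of the 494 names that it gave an adjusted p (10 called).

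The members' log2 fold changes (HG over FD) lay between -1.38 and 1.12, and 120 members (96%) were within 1 log2 unit of 0. Their median was 0.08, with 72 members higher and 53 lower, and the median standard error of a member was 0.56. The median size of a member's fold change, regardless of sign, was 0.31. By that measure it was 0.84 over all 536 names and 1.12 over the 411 names that were not members. The median standard errors of these 2 sets were larger too, 1.27 and 1.44. Since the rule leaves out names that are scarce on either diet, this contrast follows in part from the choice of members. With the sign kept, the median was 0.50 over all 536 names and 0.95 over those 411. The scaling sets where 0 lies. With TMM over all names tested the members' median became -0.20 and that of all names 0.26, so directions near 0 depend on that choice.

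**Figure D1:**
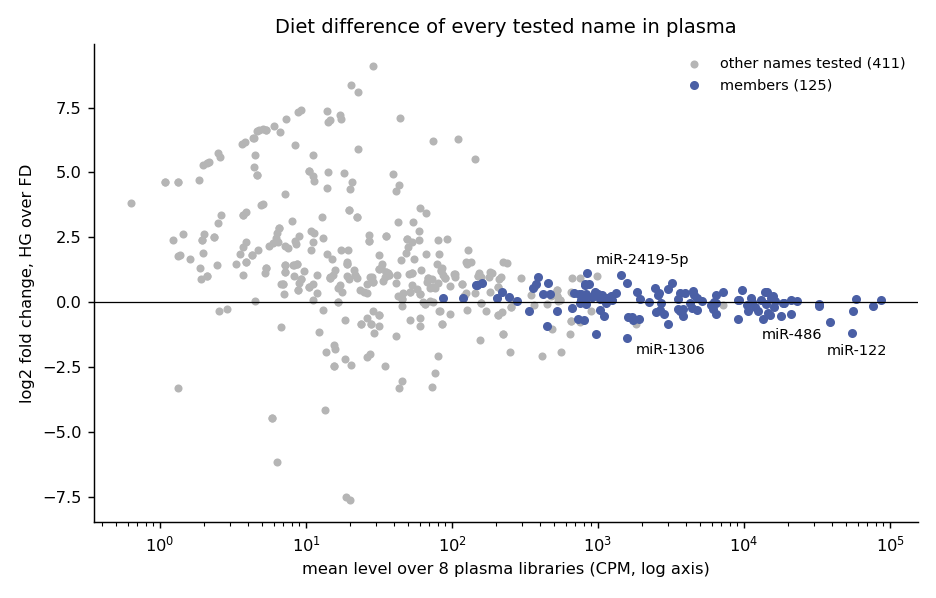
Log2 fold change of HG over FD (vertical axis) against the mean level over the 8 plasma libraries in CPM (horizontal log axis), for the members in blue and the 411 other names tested in grey. The members lie between -1.38 and 1.12, while scarcer names reach from -7.62 to 9.11.

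miR-1306 had the largest fold change of all members. It lies on chromosome 17 of UMD3.1 (74987969 to 74987989, plus strand), and RefSeq places its precursor within DGCR8, which encodes a partner of Drosha in the cleavage of primary miRNAs. On FD its level was 1300.4, 3394, 1589 and 2689.8 CPM in cows 1 to 4, and on HG it was 519, 1608, 533 and 933 CPM. Each cow was lower on HG, although cow 2 on HG stood above cows 1 and 3 on FD, so the groups overlapped. The log2 fold change was -1.38 (SE 0.51), with an adjusted p of 0.451 by edgeR's quasi-likelihood test. Leaving out 1 cow at a time gave -1.22 to -1.54, and the unadjusted p stayed under 0.05 only when cow 1 was the one left out (edgeR adjusted p 0.322 to 0.762). Its reads rested on few distinct sequences, between 3 and 13 per library, although the read number was 295 to 3901.

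miR-486, abundant in red blood cells and their precursors, was the other member below the unadjusted threshold. It is encoded on chromosome 27 (36261849 to 36261870, minus strand), within ANK1, the gene of an ankyrin of the red cell membrane. Its level was 31343, 55869, 47422 and 56804 CPM on FD and 12727, 33718, 29158 and 44156 CPM on HG. All cows were lower on HG, by 0.36 to 1.30 on the log2 scale, and the groups overlapped because HG in cows 2 and 4 exceeded FD in cow 1. The fold change was -0.77 (SE 0.36; edgeR adjusted p = 0.451). Unlike miR-1306, it was represented by at least 147 distinct sequences in each library. Leaving out cow 2, 3 or 4 moved its p above 0.05 (edgeR, adjusted p at least 0.241 in all alternatives), and the fold change then was -0.70 to -1.12.

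Of the other members that were lower in 4 of 4 cows, miR-1468 had the largest fold change. It was at 1173, 519, 1600.4 and 1850.0 CPM on FD and at 247, 383, 432 and 1513 CPM on HG. Cows 1 and 3 had the largest differences, and cow 4 on HG remained above cows 1 and 2 on FD. The fold change was -1.21 (SE 0.64; edgeR adjusted p = 0.526), and its libraries held as few as 4 distinct sequences. let-7c, of the let-7 family that restrains growth genes in differentiated cells, was at 2680.2, 1359.8, 3308 and 2035 CPM on FD and at 1511, 1090.2, 1300.2 and 1934 CPM on HG. Its difference in cow 4 was close to 0, and the fold change was -0.64 (SE 0.50; edgeR adjusted p = 0.884). Between 0.233 and 0.461 of let-7c's reads were credited to it after division among names.

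miR-92a and miR-27b were lower in all cows by small amounts. miR-92a, from the miR-17-92 cluster, had 10306, 21339.6, 17587 and 17643 CPM on FD and 7952, 14285, 11749.5 and 16166 CPM on HG, a log2 fold change of -0.42 (SE 0.38; edgeR adjusted p = 0.899). miR-27b, known as a regulator of lipid metabolism, had 34124, 35151, 30026 and 38246 CPM on FD and 29634, 28437, 29423 and 37509 CPM on HG. Its fold change of -0.14 (SE 0.35) was the smallest of the 6, and it had the smallest spread of all members (SD of log2 CPM 0.17 over 8 libraries). With library size alone as the scaling, the summed miR-27 members turned from -0.09 to 0.07.

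**Figure D2:**
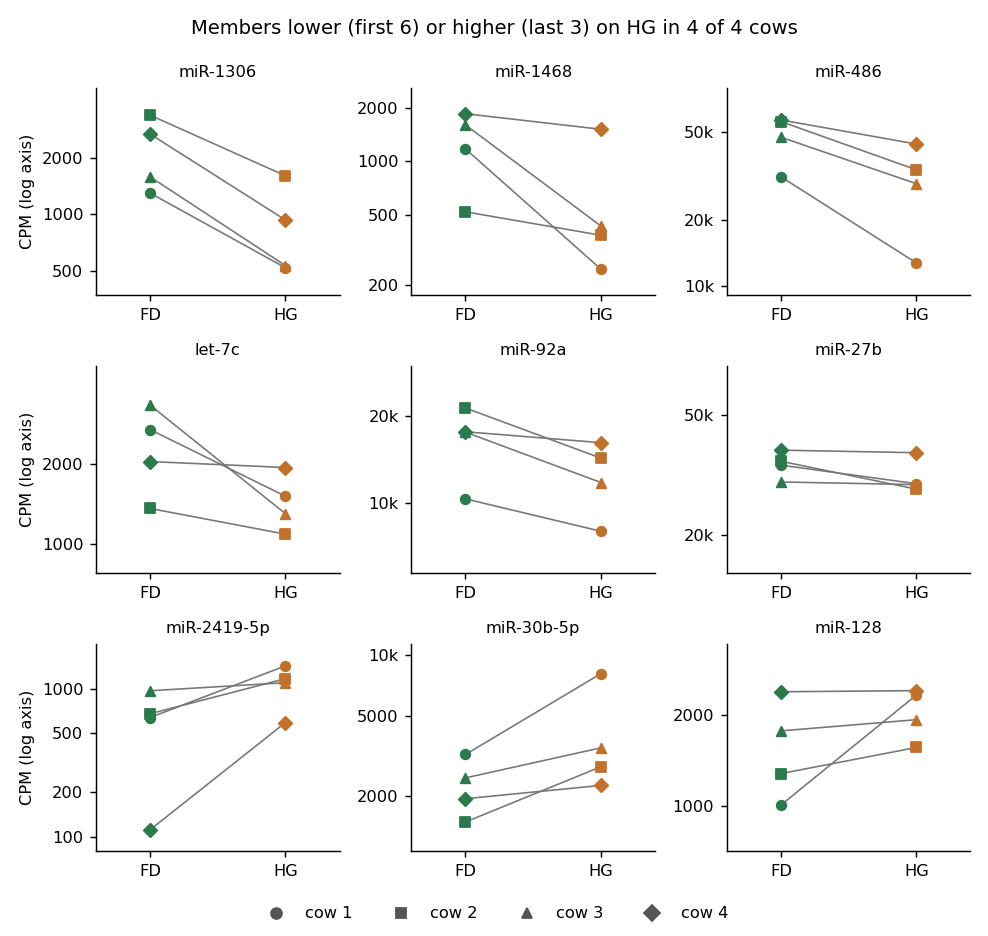
Level in CPM (log axis) of the 9 members with one direction in 4 of 4 cows, on FD (green) and HG (orange), with a line and a marker shape for each cow. miR-1306 has nearly parallel lines, whereas the lines of miR-128 and miR-27b in cow 4 are almost flat.

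The 3 members higher on HG in 4 of 4 cows were miR-2419-5p, miR-30b-5p and miR-128. miR-2419-5p, a miRNA described in cattle, was at 639, 678, 969 and 112 CPM on FD and at 1427, 1169.7, 1099 and 591 CPM on HG. The low FD value of cow 4 gave the largest single difference, and without cow 4 the fold change was 0.50 in place of 1.12 (SE 0.64; edgeR adjusted p = 0.638). miR-30b-5p, of the miR-30 family, was at 3214, 1487, 2460.0 and 1940.3 CPM on FD and at 8084, 2792, 3467 and 2257 CPM on HG. Cow 1 on HG stood far above the rest, and the fold change was 0.74 (SE 0.47; edgeR adjusted p = 0.694), or 0.43 without cow 1. miR-128, best known from brain, was at 1009, 1282, 1774 and 2389.8 CPM on FD and at 2329.6, 1564, 1932 and 2409.9 CPM on HG. Its groups overlapped almost wholly, with a fold change of 0.40 (SE 0.50; edgeR adjusted p = 0.899).

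The next 6 members ranked high by p but were not of one direction in all cows, and none had an edgeR adjusted p under 0.644. miR-2285bc, of a large ruminant family, was at 3143, 5456, 2153 and 4690.1 CPM on FD and at 1270.2, 2862, 2344 and 2033 CPM on HG, higher on HG only in cow 3. miR-148b was at 957, 352, 2528 and 538 CPM on FD and at 2859, 1198, 1344 and 1643 CPM on HG, lower on HG only in cow 3. Without cow 3 its fold change was 1.75 in place of 1.07. miR-151-5p had 9151 to 12376 CPM on FD and 5563 to 5885 CPM on HG in cows 2 to 4, while cow 1 on HG had 12101 CPM, and the fold change was -0.64 (SE 0.42). miR-195, a sharer of the miR-15/16 seed, averaged 289 CPM on FD (SD 204, n = 4 cows) and 485 CPM on HG (SD 156). miR-146a, a feedback inhibitor of NF-κB signalling, had 1324 to 3227 CPM on FD and 890.4 to 1624 CPM on HG, with a fold change of -0.68 (SE 0.54). The remaining one of the 6, miR-122, is described with the liver names.

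The 10 most abundant members were miR-21-5p, miR-451, miR-143, miR-24-3p, miR-122, miR-486, miR-30d, miR-27b, miR-30e-5p and let-7g. miR-21-5p, a widely expressed miRNA that is raised in inflammation, led with 83364 ± 11026 CPM on FD and 89968 ± 27259.7 CPM on HG (SD, n = 4 cows each). HG of cow 1 reached 130759 CPM, and all other libraries lay between 73386 and 98665 CPM. miR-30d, miR-30e-5p and let-7g had fold changes of -0.06, 0.04 and 0.10 with standard errors of 0.36 to 0.39. The 5 members of smallest spread over the 8 libraries were miR-27b, miR-142-5p, miR-30e-5p, miR-23b-3p and miR-16a, with SDs of log2 CPM between 0.17 and 0.26. miR-142-5p, made by blood cells, was at 7767, 10792, 9059 and 8456 CPM on FD and at 8646, 9144, 9151 and 11097 CPM on HG. These 5 members were chosen by their small spread in these same libraries, so their steadiness is a description. Even so, miR-16a ranged from 13562 to 22982 CPM and miR-23b-3p from 3130 to 5163 CPM over the 8 libraries.

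The liver and gut list held miR-122, which had the largest SD of log2 CPM (1.35 over 8 libraries) of the 10 most abundant members. Of 10 listed names with reads, miR-122, miR-192, miR-194 and miR-215 were members. miR-122, by far the most abundant miRNA of hepatocytes, was at 8583, 98597, 127360.0 and 80952 CPM on FD and at 49252, 22773, 17156 and 33917 CPM on HG. In cows 2, 3 and 4 every FD level was above every HG level, and in cow 1 the order was the opposite. The fold change was -1.19 (SE 0.81; edgeR adjusted p = 0.77). Without cow 1 it was -2.19 and without cow 3 it was -0.44, with an edgeR adjusted p of at least 0.241 in all alternatives run.

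miR-192, found in gut, liver and kidney, was at 3588, 26529, 11125 and 15833 CPM on FD and at 12658, 7337, 4505 and 17729 CPM on HG. miR-215, which shares its seed, was at 3531, 11944, 5364 and 7323 CPM on FD and at 6963, 3491, 1914 and 10767 CPM on HG. Both were lower on HG in cows 2 and 3 and higher in cows 1 and 4. miR-194 is transcribed with miR-192 but was steadier, with 614 to 1060.3 CPM on FD and 861 to 1338 CPM on HG. The sum of the 4 was lower on HG in 3 of 4 cows, by a mean of -0.79 ± 2.06 on the log2 scale (SD over 4 cows), so the spread exceeded the difference. miR-122 was 932-fold higher in plasma than in leucocytes on the members' scale, the highest ratio of all members, and miR-215 followed with a log2 ratio of 8.07.

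Red cell miRNAs differed among themselves and between cows. Of 7 listed names, miR-451, miR-144, miR-182 and miR-486 were members, and the sum of the 4 differed by -0.33 ± 0.75 (log2, SD over 4 cows). miR-451, an erythroid miRNA processed by Argonaute without Dicer, was at 103858, 116498, 43855 and 55099 CPM on FD and at 45107, 98899, 108012 and 43677 CPM on HG. It was higher on HG only in cow 3, and its fold change was -0.13 (SE 0.42). miR-144, its neighbour in one transcript, was at 4047, 2971, 1632 and 1951 CPM on FD and at 1658, 3615, 4351 and 1440.3 CPM on HG, following miR-451 closely. The log2 ratio of miR-451 to miR-23a, a common index of haemolysis, was 3.44, 2.82, 0.858 and 1.02 on FD and 0.970, 3.21, 3.41 and 1.09 on HG. The 4 highest ratios, of cows 1 and 2 on FD and cows 2 and 3 on HG, were those of the 4 shallowest libraries. The mean difference of the ratio was 0.13 ± 2.06 (SD over 4 cows), and its part in the results was not tested.

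Of 12 leucocyte names, 7 were members, and 6 of the 7 had a positive fold change. Their sum was 25206, 29339.6, 41847 and 37436 CPM on FD and 53412, 30983, 34312 and 36348 CPM on HG. Cow 1 gave the only large difference, so that the mean of 0.21 ± 0.60 (SD over 4 cows) became -0.08 without that cow. With TMM over all names it was -0.04. miR-223, of neutrophils and platelets, was at 4399, 9663, 18124 and 14559.8 CPM on FD and at 30079.7, 10382, 11724 and 12144 CPM on HG. miR-150, of mature lymphocytes, was at 2588 to 7074 CPM on FD and 3051 to 6164 CPM on HG, which overlap almost fully.

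All 9 platelet names with reads were members, 7 of them with a positive fold change. Their sum differed by 0.03 ± 0.76 (log2, SD over 4 cows) and was higher on HG only in cow 1, so that it was -0.35 without cow 1 and -0.22 with TMM over all names. miR-223 is on this list and on the leucocyte list. miR-199a-3p and miR-199a-5p are also on the vessel wall list, so these sums are not independent. In cow 1, miR-223 went from 4399 CPM on FD to 30079.7 CPM on HG, and the platelet sum from 27318 to 60299 CPM. miR-126-3p, of endothelium and platelets, had 4181 to 10292 CPM on FD and 4176 to 8815 CPM on HG, a fold change of -0.04 (SE 0.41). miR-28 was highest in the deep HG library of cow 1, at 388, 357, 1265 and 1673 CPM on FD and at 2656, 426, 688 and 743 CPM on HG.

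Vessel wall and stroma gave 10 members of 13 names, whose sum differed by 0.05 ± 0.64 (log2, SD over 4 cows) and turned to -0.20 with TMM over all names or without cow 3. miR-143, of smooth muscle, was at 79022, 51896, 43429.6 and 47232 CPM on FD and at 37313, 66371, 85649.7 and 55412 CPM on HG. It was lower on HG in cow 1 and higher in the other 3 cows. miR-145, from the same transcript, differed in the same direction in every cow and never by more than 0.27 log2 units from miR-143. miR-10b, a HOX cluster miRNA, was at 1710.4, 8966, 6300.5 and 9330.5 CPM on FD and at 4662, 4356, 4509.6 and 7709.7 CPM on HG, which is the opposite order by cow.

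Epithelial names were all members (7 of 7), and miR-1 was the only member of 7 muscle names. The epithelial sum was 31713, 18557, 9978 and 5973 CPM on FD and 8931, 22738, 26132 and 9565 CPM on HG. It was lower on HG in cow 1 and higher in the other 3, with a mean difference of 0.13 ± 1.38 (log2, SD over 4 cows) that became -0.11 with TMM over all names. miR-200b, of the miR-200 family that maintains the epithelial state, was at 3826, 822, 750.2 and 419.9 CPM on FD and at 891, 2269, 2636 and 948 CPM on HG. Without cow 1 its fold change was 1.38 in place of 0.73 (SE 0.72; edgeR adjusted p = 0.899). miR-1, of heart and skeletal muscle, was at 1265, 516, 501 and 217 CPM on FD and at 377, 1192, 2076 and 399 CPM on HG. The reads of miR-1, miR-200a and miR-200b hardly followed library depth, as described below, so their CPM tend to fall as the library total rises. On FD miR-1 had 1723 to 2559 reads, while the library totals spanned 7.80-fold. On HG, where the totals spanned 4.17-fold, other epithelial names also varied little. There miR-205 had 5899 to 7441 reads, miR-200c 2284 to 3091, miR-31 1032 to 1416 and miR-429 705 to 983. On FD they had 2396 to 5757, 913 to 1644, 441 to 1091 and 276 to 1014 reads, in the same order. The part of depth in the epithelial sum was not tested. None of the 36 names of the imprinted DLK1-DIO3 cluster, which is active in placenta and embryo, reached 100 reads in all libraries.

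**Figure D3:**
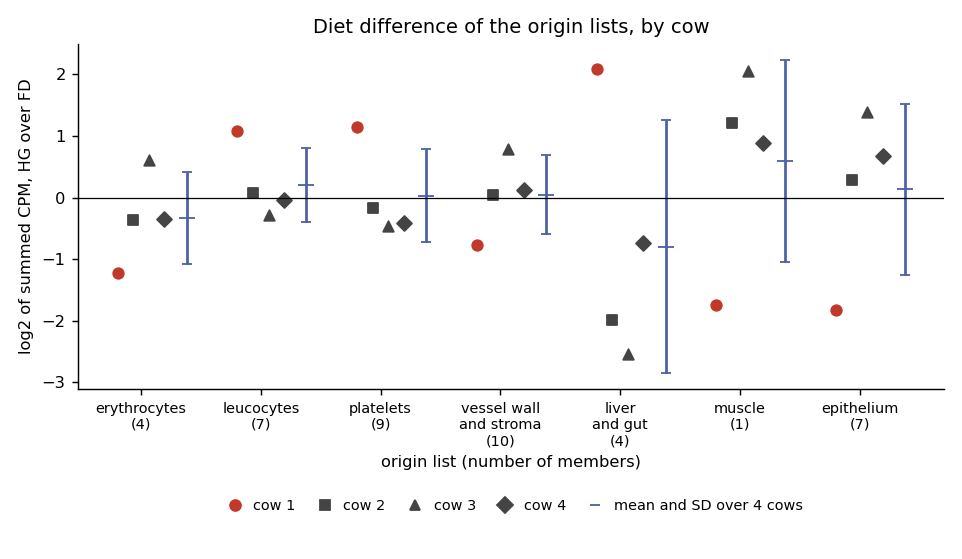
Log2 ratio of the summed CPM on HG over FD (vertical axis) for the members of each origin list, with a marker for each cow (cow 1 in red) and, in blue, the mean and SD over the 4 cows. Cow 1 lies on the opposite side of 0 from cows 2, 3 and 4 for liver and gut, muscle, epithelium, vessel wall and platelets, and every SD bar includes 0.

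Families with at least 3 members were counted in the same way, and the SD of the sum's difference was larger than its mean in each except the ruminant miR-2284 and miR-2285 family. That family had 3 members of 37 names and a sum of 3809, 6413, 3871 and 5954 CPM on FD and 2321, 3698, 3667 and 3474 CPM on HG. The sum was lower on HG in 4 of 4 cows, by -0.59 ± 0.34 (log2, SD over 4 cows), and its largest part was miR-2285bc. The fold changes were -0.84 for miR-2285bc, -0.33 for miR-2285bf and 0.30 for miR-2284x. The 3 miR-29 members, regulators of collagen genes, all had negative fold changes between -0.47 and -0.55, and their sum was 11867, 34509.6, 16046 and 22586 CPM on FD and 14219, 12138, 9984 and 21256 CPM on HG. The miR-29 sum was lower in cows 2, 3 and 4 and slightly higher in cow 1, a difference of -0.50 ± 0.77.

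The miR-17 family, which promotes cell cycle entry, had 4 members, miR-17-5p, miR-20a, miR-93 and miR-106b, all with positive fold changes between 0.32 and 0.71. Its sum of 11607, 5858, 5075 and 4726 CPM on FD and 6901, 10325, 12111 and 5855 CPM on HG was higher in cows 2, 3 and 4, a difference of 0.41 ± 0.86. The 9 let-7 members were split, 4 with a positive and 5 with a negative fold change, and their sum differed by -0.12 ± 0.73. The group of miR-10, miR-99, miR-100 and miR-125, which do not all share a seed, was counted with the families. Of its 7 members, 6 had a negative fold change, none below -0.29, and the sum of the 7 differed by -0.16 ± 0.46. The miR-15/16, miR-25/92 and miR-30 families differed by 0.05 ± 0.49, -0.17 ± 0.23 and 0.07 ± 0.25. Of the common reference miRNAs, 5 of 6 names were members, and their sum ranged from 20816 to 74007 CPM on FD and from 28429.9 to 47336 CPM on HG.

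The differences between diets were not alike in the 4 cows. Over all members, the HG minus FD difference of cow 1 was negatively correlated with that of cows 2, 3 and 4 (Pearson's r -0.383, -0.645 and -0.286), whereas cows 2 and 3 had r = 0.595, cows 2 and 4 had 0.302 and cows 3 and 4 had 0.314. These are descriptions across members, which share libraries and scaling. In cow 1, 29 members were more than 1 log2 unit higher on HG and 39 more than 1 lower, against 22 and 14 in cow 2, 36 and 20 in cow 3, and 9 and 11 in cow 4. The first principal component held 52.7% of the variance and set the 3 shallowest libraries apart: FD of cow 1 scored -8.84, HG of cow 2 -4.58 and HG of cow 3 -7.36, while the other 5 libraries scored 1.67 to 7.57. The HG library was the deeper in cows 1 and 4 and the shallower in cows 2 and 3, and within a cow depth and diet cannot be told apart.

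Without cow 1, 18 members were at an unadjusted p under 0.05, 6 higher and 12 lower, in place of 2, and none was at an adjusted p under 0.05 (edgeR, smallest adjusted p = 0.322). Both miR-1306 and miR-486 were among the 18. The others included miR-122 (-2.19), miR-423-5p (-1.42), miR-22-3p (-1.09) and miR-151-5p (-1.01), all lower on HG, and miR-200b (1.38), miR-195 (1.34) and miR-200c (1.05), all higher. The reads of miR-200b and miR-200c varied less than the library totals did. Over all names that fit called 14.5% (74 of 509), and it called 14.4% of the members. Adding the log2 library total as a covariate, an alternative chosen after seeing the data, gave 17 members (13.6%), against 14% of all names (75 of 536), and again 0 at an adjusted p under 0.05 (edgeR).

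**Figure D4:**
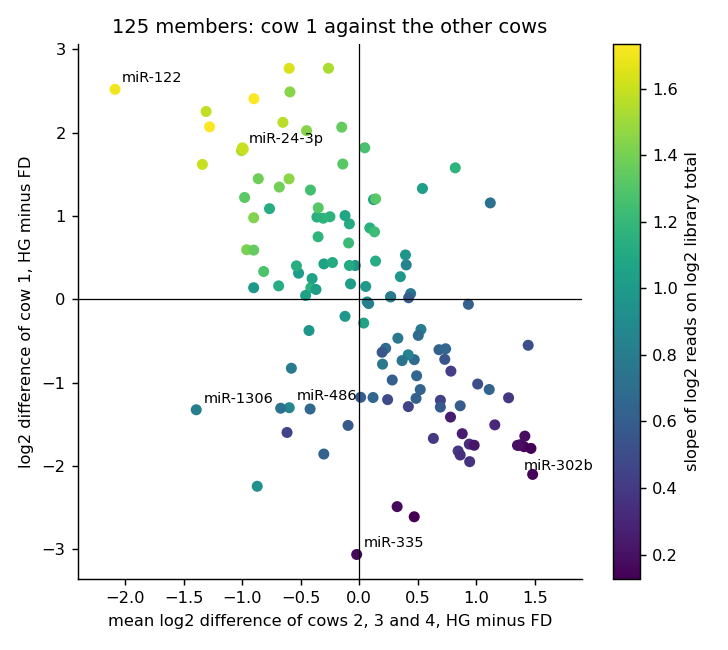
Log2 difference HG minus FD of cow 1 (vertical axis) against the mean difference of cows 2, 3 and 4 (horizontal axis), with a point for each member. Colour gives the slope of a member's log2 reads on the log2 library total, from 0.13 (dark) to 1.73 (yellow), and since that slope uses the same libraries, its gradient along the axes is a description.

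The members did not all follow the depth of their library. A miRNA that makes up a constant share of a library has reads in proportion to the total, a slope of 1 on log2 scales. The median slope over the 8 plasma libraries was 0.87, but it ranged from 0.13 to 1.73. It was under 0.25 for 11 members (miR-99b, miR-302b, miR-200b, miR-9-5p, miR-200a, miR-335, miR-1, miR-202, miR-124a, miR-124b and miR-199b) and above 1.25 for 27, among them miR-122, miR-423-3p and miR-29c. When 1 cow at a time was left out, the slopes of these 11 ran from -0.52 to 0.54, so the limit of 0.25 does not mark a fixed class. The abundant miR-21-5p and miR-27b both had slopes of 0.98.

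For 7 of the 11, every HG library held more reads than every FD library, and the reads varied by at most 1.68-fold among FD libraries and 1.89-fold among HG libraries. miR-302b, best known from embryonic stem cells, had at least 173 reads in the FD libraries and at most 1.29-fold as many, while their totals spanned 7.80-fold, and 407 to 771 reads in the HG libraries, whose totals spanned 4.17-fold. The 6 leucocyte libraries, with 18324737 to 56770875 estimated counts, had 174 to 523 reads of it. miR-1 had 1723 to 2559 reads on FD, 4503 to 8159 on HG and 2196 to 5223 in leucocytes.

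Neuronal miR-124a had 265 to 348 reads on FD, 655 to 1226 on HG and 468 to 930 in leucocytes, and miR-124b had nearly the same reads. miR-200b had 609 to 868, 1428 to 1920 and 563 to 1727 reads, in the same order. miR-199b differed from these in leucocytes, with 7905 to 48701 reads there against 132 to 526 on FD. Counted over all members, 13, the 7 among them, had more reads in every HG library than in any FD library (10.4%), also where the HG library was the shallower, against 20.3% of all names tested (109 of 536). For the 7, the median ratio of HG to FD reads within a cow was 2.49 to 2.76. The source of these reads was not tested.

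**Figure D5:**
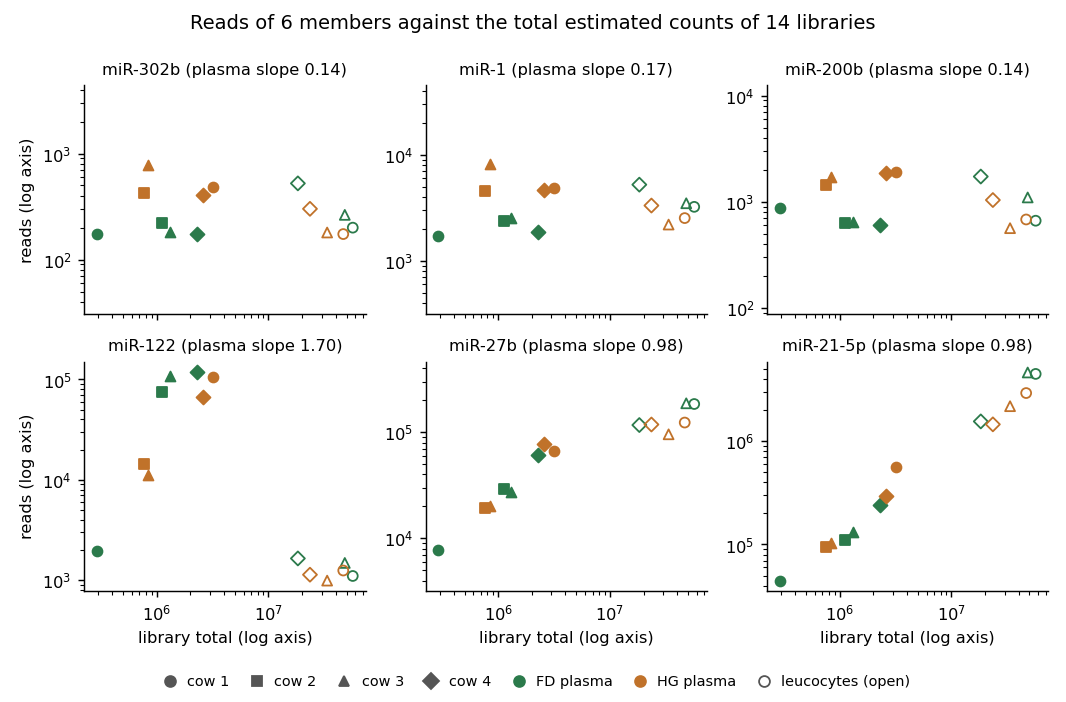
Reads of 6 members (vertical log axis) against the library's total estimated counts (horizontal log axis), for plasma on FD (filled green), plasma on HG (filled orange) and leucocytes (open), with a marker shape for each cow. miR-302b, miR-1 and miR-200b change less than the library totals do, whereas miR-27b and miR-21-5p climb with depth and miR-122 climbs more steeply in plasma only.

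The number of distinct read sequences behind each member was also read from the files. The median member had 19 to 36 distinct sequences in FD libraries and 32 to 54 in HG libraries. In 4 of 4 cows 82 members had more on HG and 0 had more on FD. The same count over all names tested was not made, so no background stands beside it. In cow 1, whose HG library was 10.9-fold deeper, 124 members had more on HG. In cows 2 and 3, whose HG libraries were shallower, 93 and 106 members had more distinct sequences on HG. A minimum of 100 reads did not always mean many distinct sequences: 24 members had fewer than 10 in some library, and miR-326, miR-1306, miR-9-3p and miR-1468 had fewer than 5. miR-326 had 2 in the FD library of cow 1, which held 396 reads of it.

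Read division touched most members. For 45 members nearly all reads were credited to the name alone, and for 36 the credited share was between 0.49 and 0.51, mostly where a human name in the same reference (prefix hsa-) took the other part. For 46 members a human name had identical read numbers. The names miR-339a and miR-339b had identical reads and cannot be told apart. For 12 members the credited share varied by more than 0.1 between libraries, so their estimated counts depend on the other names as well.

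Members from one hairpin or one neighbourhood were compared as a description. The 2 arms of a hairpin were both members in 5 cases, and the arms differed in the same direction in 4 of 4 cows only for miR-423. The arms of miR-142 had the least alike differences, by a median of 1.88 log2 units per cow. miR-142-3p ranged from 179 to 1702 CPM on FD and from 291 to 1069 CPM on HG, while miR-142-5p hardly varied. Of 35 pairs of members within 10 kb on one strand, 8 had one direction in all cows, 22.9% against 10.2% of all pairs of members. Among the 8 were miR-143 with miR-145 and miR-25, miR-93 and miR-106b with one another, the last 3 from within MCM7, a gene of the replicative helicase. The 8 pairs share members and are not independent. miR-25, miR-93 and miR-106b give every pair among themselves. miR-24-3p is paired with both miR-23b-3p and miR-10174-3p, which are 2 names at the same place. The share of 22.9% therefore rests on fewer neighbourhoods than pairs. miR-192 and miR-194 differed in direction in 3 of 4 cows.

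The same members were then read in leucocytes of cows 1, 3 and 4. There 8 members (6.4%) differed between the diets at an adjusted p under 0.05, against 1.8% of the 779 names tested (edgeR quasi-likelihood test, Benjamini-Hochberg). The members' median standard error was 0.14, against 0.26 over all names. Their fold changes were not larger, with a median size of 0.28 against 0.30, so the higher share does not mean a larger difference between diets. Lower on HG were miR-374a (-0.94, adjusted p = 0.00468), miR-146a (-0.84), miR-144 (-0.86), miR-32 (-0.78), miR-2285bf (-0.66), miR-27a-3p (-0.64) and miR-142-3p (-0.61), and let-7b was higher (0.55). Without a block for cow 0 of them were called, and leaving out 1 cow at a time gave 0 to 35 calls (0 without cow 3, and 35 without cow 4, where 14.9% of all names were called). In plasma the 8 had fold changes between -0.68 (miR-146a) and 0.39 (miR-374a), none at an edgeR adjusted p under 0.884. miR-374a in plasma was at 2319, 585, 688 and 249.6 CPM on FD and at 1276, 801, 1148 and 559 CPM on HG. let-7b in plasma was at 11135, 10814, 31658 and 32644 CPM on FD and at 14038, 9715, 8917 and 23629.5 CPM on HG, lower on HG in 3 of 4 cows.

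Relative to leucocytes, the level of 26 members was at least 16-fold higher in plasma, led by miR-122, miR-215, miR-10b, miR-200a and miR-126-3p, and 43 were lower in plasma, with miR-451, miR-144 and miR-15b lowest at log2 ratios of -2.09, -2.05 and -1.93. The leucocytes were taken as the buffy coat of the spun blood. There the red cell names miR-451 and miR-486 averaged 326966 and 46584 CPM on the members' scale. How much of this came from red cells was not tested. Of the 11 members with a slope under 0.25, 9 were among the 26. Their ranges of reads overlapped between both materials, as with miR-200a (1757 to 4152 reads in plasma and 862 to 2523 in leucocytes), so that their ratios follow the library totals, which were 33.0-fold higher in leucocytes at the median. The plasma fold change between diets had a median of 0.15 over the 26 (0.07 without the 9), of -0.13 over the 56 in between and of 0.18 over the 43, where 33 of 43 were positive. Positive fold changes numbered 16 of the 26 and 23 of the 56. The members share libraries and scaling, and differences between these medians were not tested.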

How the data were processed

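Small RNA libraries of plasma (8, from 4 cows on both diets) and leucocytes (6, from 3 of these cows) were used. According to the study's methods and the processing notes, reads were demultiplexed with bcl2fastq 2.20, trimmed with Skewer and assigned with sRNAbench (genome mode, UMD3.1) to bovine and human names of miRBase 22, allowing mismatches. Per the file headers, the deposited library files hold whole-number read counts, in which a shared read counts in full at each name, the number of distinct reads, and a multi-map-adjusted count. The last is an estimated count as deposited, in which the authors' software divided shared reads among names. It was rounded to whole numbers here. The 2 normalized tables of the series were not used. No molecular identifiers were stated, so reads are not independent molecules.

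The 125 members and the lists were chosen with earlier results of these data known. Names with at least 10 estimated counts in total were fitted with edgeR 4.0.16 in R 4.3.3 (robust quasi-likelihood, model cow plus diet), with library sizes set by the members' counts and TMM over the members, and Benjamini-Hochberg adjustment over all names tested. Leucocytes were fitted separately with TMM over all names. CPM are relative to the members' effective counts, with a prior count of 1 on the log2 scale. List values are sums of CPM, compared as log2 differences per cow, without a test. The fits were tested on simulated data. DESeq2 1.42.0 was an alternative, as were other scalings, undivided counts, other filters and minimums, no block, and leaving out each cow.

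Plasma library n was paired with n + 4, on the assumption that the libraries of each diet are numbered in the same order of cows. The plasma labels carry no animal letter. The profiles did not show the pairing: over the members, deviations from the diet means correlated at -0.406 to 0.553 within cows and at -0.697 to 0.726 between cows. Nothing states that the 2 libraries of a cow were handled alike, so p-values measure the spread between these samples. Host genes were taken from RefSeq by symbol only (124 of 125 members matched), and coordinates are those of the library files. Named members were the 10 most abundant, the 12 with the smallest p, the 5 with the smallest spread, those called in leucocytes, those nearest the minimum and the leading members of each list. Names in the sections on depth, distinct reads and hairpins were chosen after their values were seen.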

Additional observations from a re-analysis of the deposited data

Results flagged for a closer look

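In 8 of 90 groups of 4 libraries (each named member or list on each diet), 1 library lay far from the other 3 by Dixon's test, where chance gives about 1 in 20, or 4.5. Of the 8, 3 concern the shallow FD library of cow 1: miR-122 with 8583 CPM (the other FD libraries 80952 to 127360.0), the liver and gut sum with 16557 CPM (others 105124 to 144463) and the miR-15/16 sum with 57285 CPM (others 42973 to 44796). The deep HG library of cow 1 accounts for 4: miR-21-5p with 130759 CPM (others 74422 to 78941), miR-151-5p with 12101 CPM (others 5563 to 5885), miR-2285bf with 169 CPM (others 313 to 335) and the sum of the miR-2284 and miR-2285 family with 2321 CPM (others 3474 to 3698). The last is miR-27b in the HG library of cow 4, with 37509 CPM (others 28437 to 29634). Library depth differed beside each of the first 7, and its part was not tested.

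In addition, 3 members were lower on HG in plasma of every cow and higher on HG in leucocytes of every cow, and the difference itself was not tested. miR-486 had log2 fold changes of -0.77 in plasma and 0.42 in leucocytes, miR-1306 of -1.38 and 0.38, and let-7c of -0.64 and 0.37. None of the 6 values had an edgeR adjusted p under 0.05.

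Of 51 human names with at least 100 reads in every plasma library, 5 had read numbers that were not identical to those of any bovine name: hsa-let-7d-3p, hsa-miR-145-3p, hsa-miR-194-5p, hsa-miR-320a-3p and hsa-miR-7-5p. hsa-miR-320a-3p had 509, 7240, 6349 and 23468 reads on FD and 16920, 2954, 2317 and 17309 reads on HG, the same as those of member miR-320a in 7 of 8 libraries. hsa-miR-7-5p had 98.4% to 99.8% of the reads of member miR-7, and hsa-miR-194-5p had 76.4% to 93.2% of those of member miR-194, so these 3 names hold largely the members' reads. The other 2, hsa-let-7d-3p and hsa-miR-145-3p, had 2330 to 17245 and 139 to 1839 reads.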

How the results depend on the processing

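The number of members at an unadjusted p under 0.05 (2 as reported) was 4 with TMM over all names (8.58% of all names tested) and with the DESeq2 Wald test (8.21%), 1 with DESeq2 size factors, with library size only, with undivided read counts, with no filter, with no replicate block for cow and with a minimum of 200 reads (8.58% to 13.1% of all names), 17 with log2 library total as a covariate (chosen after seeing the data, 14% of all names), and 0 to 18 when a cow was left out (6.73% to 14.5%). At an adjusted p under 0.05 it was 1 with the DESeq2 Wald test (10 of all names) and 0 in the others. The median log2 fold change of the members (0.076) was -0.20 with TMM over all names, 0.23 with library size only, 0.17 with undivided read counts, -0.029 with a minimum of 50 reads, and -0.16 to 0.084 without a cow. With scaling over the members without the 11 of slope under 0.25 (also chosen later) the count was 2 and the median 0.054. In leucocytes the 8 members called (1.8% of all names) became 21 with the DESeq2 Wald test (10.3% of the 341 names it gave an adjusted p), 0 with no replicate block (0%), and 0 to 35 when a cow was left out, 0 without cow 3 (0% of all names), 2 without cow 1 (1.24%) and 35 without cow 4 (14.9%). Depth limits the FD library of cow 1, and with 4 cows a member's median standard error of 0.56 log2 units hides smaller differences. The causes of these moves were not tested.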
